A study of Mus musculus with 6 samples.

Results

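Among the genes measured in the anterior cingulate cortex (ACC), a frontal cortical region tied to mood and pain, are those that build the postsynaptic density and those that shape the actin skeleton of dendritic spines. The set described here holds 39 such genes, chosen by name from known roles, though with earlier results of these data known. All 39 were present among the 14250 rows of the table. They are 15 scaffold, kinase and adhesion genes and 24 actin regulators. None of the 39 passed the test for a difference between mice given LPS and mice given saline, and the data bound most of them tightly: for 34 genes a change of 1.5-fold in either direction lay outside the 95% interval.

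The tested mice received lipopolysaccharide (LPS), a bacterial cell wall component that triggers inflammation, at 50 µg per kg, and the control mice received saline free of pyrogens. Both groups were C57BL/6 mice with no engineered allele named in the labels, injected into the peritoneum on postnatal day 14 and killed on postnatal day 45. Each group held 3 mice with 1 library of polyadenylated RNA each, called LPS 1 to 3 and Saline 1 to 3 here. The labels do not state the sex, litter or cage of the mice. The p-values rest on the spread between these mice, and whether mice of a group shared a litter or cage is unknown. In bulk tissue of this kind, fewer cells of a type and less RNA per cell cannot be told apart.

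Excitatory synapses sit on dendritic spines, and beneath their membrane lies a layered scaffold. Membrane-associated guanylate kinases (the Dlg genes) hold receptors and adhesion proteins, SAPAP proteins (the Dlgap genes) link them to the deeper Shank proteins, and these connect to actin. Spine shape follows from branched actin that small GTPases control through kinases, cofilin, the WAVE complex and the Arp2/3 complex.

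The LPS libraries held 41270737, 41223469 and 36168687 counts and the saline libraries 39308376, 39804999 and 37416194. The 39 genes took 1.74% to 1.80% of the counts in LPS libraries and 1.69% to 1.79% in saline libraries. The dissected tissue carried the markers of cortex: all 9 excitatory neuron markers had counts in every library, with summed levels of 2418 to 2494 CPM (counts scaled to a common library size, with edgeR's TMM factors) in LPS libraries and 2221 to 2514 CPM in saline libraries. Microglial markers summed to 320.2 to 343 CPM in LPS libraries and 299.7 to 324 CPM in saline libraries. Oligodendrocyte markers varied most in absolute terms, at 1437 to 1901 CPM in LPS libraries and 1397 to 1758 CPM in saline libraries. Marker lists of striatum summed to 122 to 132 CPM in LPS libraries and 129 to 133 CPM in saline libraries, and those of thalamus to 80.4 to 93.4 CPM in LPS libraries and 77.6 to 108 CPM in saline libraries. No gene of the 8 marker lists passed the test.

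Counts were tested with edgeR's quasi-likelihood test over all 14250 genes, with Benjamini-Hochberg adjustment and a threshold of 0.05. Of the 39 genes, 0 were higher and 0 lower in LPS mice, while 0.0982% of all genes were called higher and 0.189% lower. The number at an unadjusted p under 0.05 was 0 with edgeR, against 7.17% of all genes. DESeq2 and limma-voom also called 0 of the 39, with 1 gene (Limk1) at an unadjusted p under 0.05 in DESeq2 and 0 in limma-voom. DESeq2 called 0.421% of all genes higher and 0.562% lower (0.983% in all), and limma-voom 0.0772% higher and 0.161% lower (0.239% in all). The smallest adjusted p among the 39 was 0.711, for Arhgef7. A p that misses the threshold does not show that values are equal, so the interval of each log2 change is given throughout, for each gene on its own.

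A log2 change here is LPS relative to saline, and its 95% interval comes from the same fit. For 30 of the 39 genes (76.9%) the interval lay inside a narrower margin, a 25% rise or the fall that reverses it, against 49.1% of all genes. The interval lay inside 1.5-fold for 34 (87.2%, against 77.4% of all genes) and inside 2-fold for 36 (92.3%, the same share as among all genes). Among the 30, the largest rise not left out was 1.2-fold (Nlgn2) and the largest fall not left out 1.19-fold (Tiam1). Limk1 was just inside the 1.5-fold limit, with an upper bound of 1.498-fold, and Cttn just outside it, with an upper bound of 1.52-fold. The 5 genes outside were Shank2, Nlgn1, Rac1, Ppp1r9a and Cttn. The first 4 of these were also the only genes of the set with a range over 1.5-fold within a group (10.3%, against 18.3% of all genes).

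**Figure D1:**
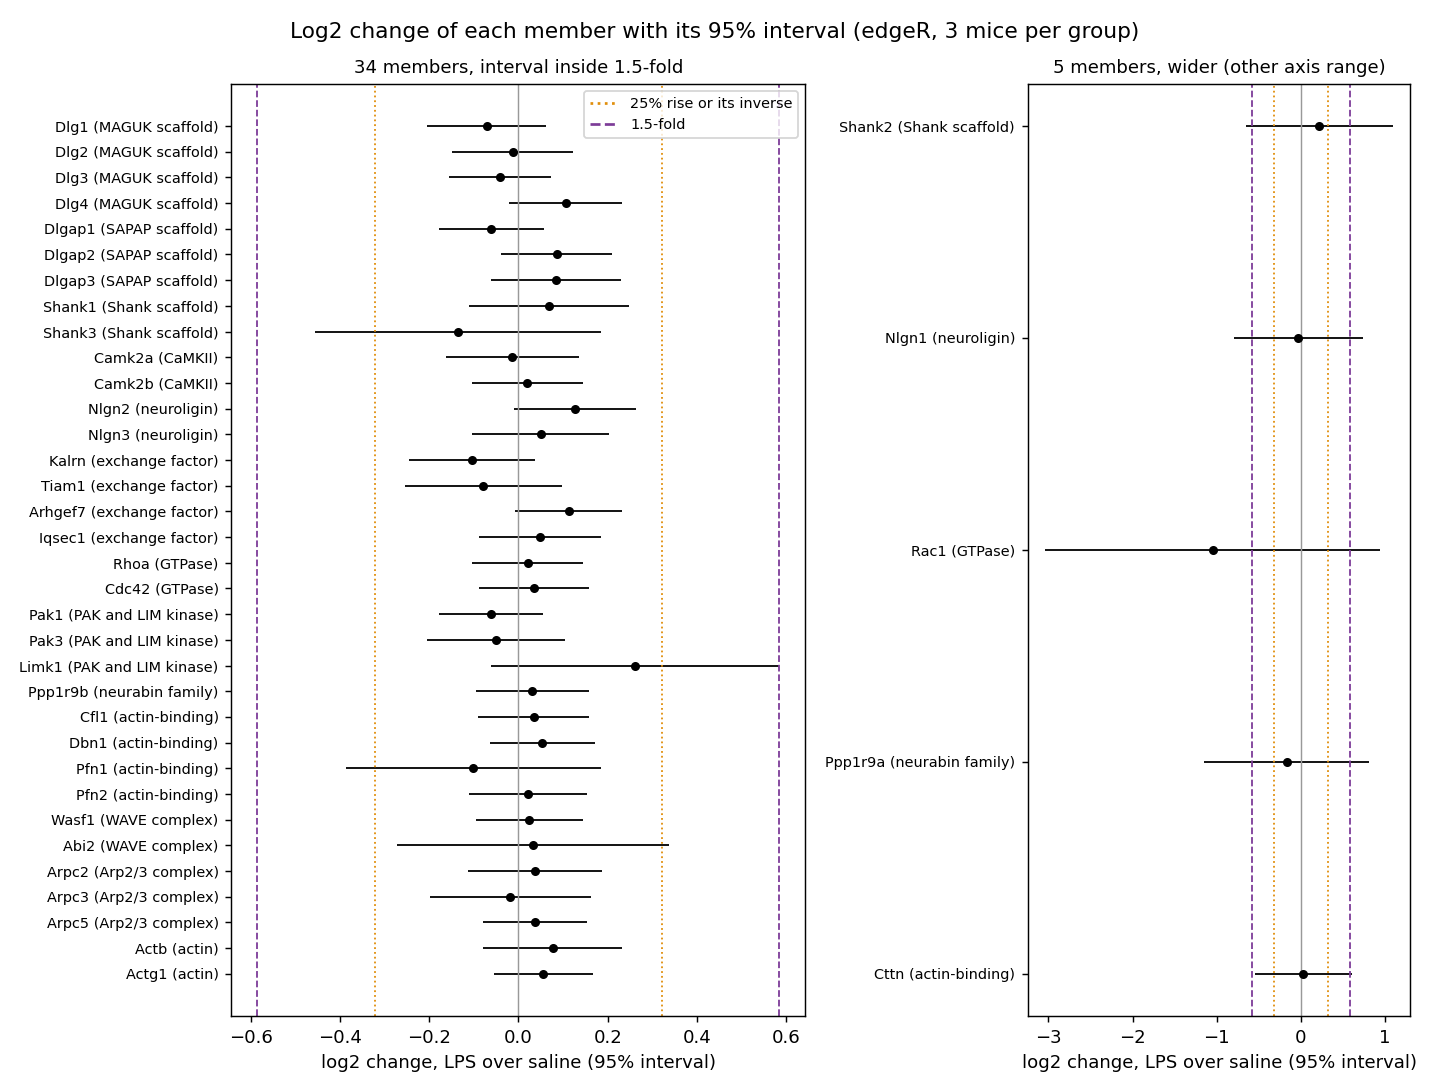
Log2 change of each of the 39 genes, LPS over saline (points), with its 95% interval (lines) from edgeR with 3 mice per group; dotted and dashed vertical lines mark a 25% rise or its inverse and 1.5-fold. All 39 intervals include 0, and the 5 genes in the right panel, on a wider axis, reach past 1.5-fold.

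These genes drew many reads. Their median was 245 CPM, against 22.4 CPM over all genes, and all 39 were above that median. The lowest count of any of the 39 in any library was 1777. The median standard error (SE) of the log2 change was 0.061 for the 39 and 0.101 for all genes. This comparison, and the shares of all genes inside each margin above, were not matched for level. The width of the widest intervals did not follow the level: Shank2 and Rac1 had mean CPM values like those of genes with narrow intervals.

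**Figure D2:**
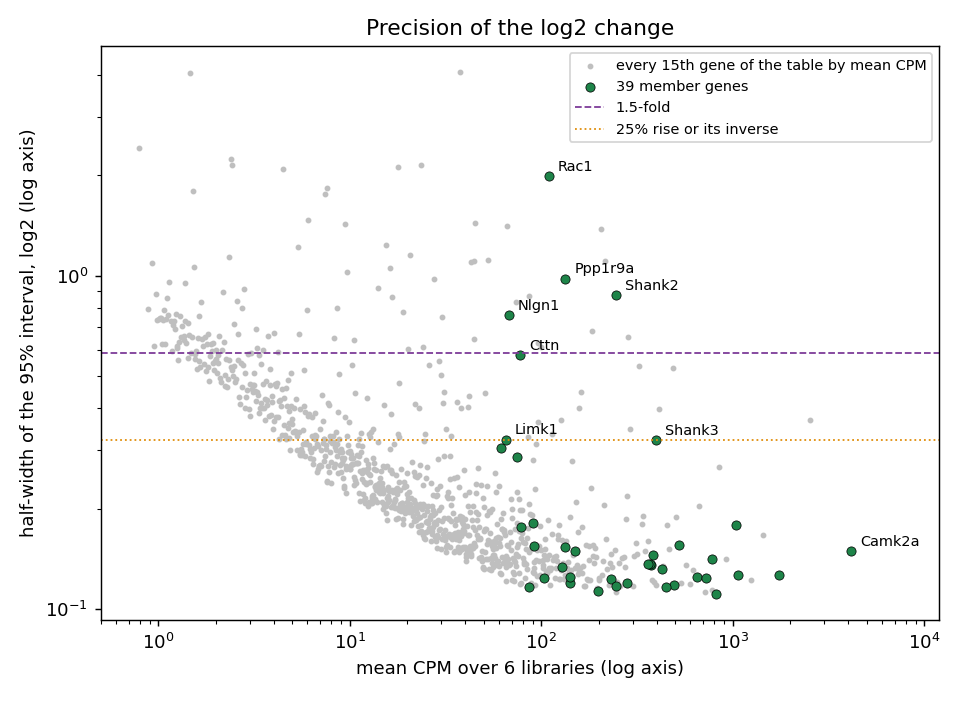
Half-width of the 95% interval of the log2 change (log axis) against mean CPM over the 6 libraries (log axis) for the 39 genes (green) and an even sample of all genes ordered by level (grey). Most of the 39 lie at the narrow end, and Rac1, Ppp1r9a, Shank2 and Nlgn1 lie above the dashed 1.5-fold line.

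The log2 changes were positive for 24 and negative for 15 of the 39, with a median of 0.03, against 0.0014 over all genes. Their mean was -0.0082, opposite in sign to the median, and held the Rac1 value described below. The median size of the log2 change, without its sign, was 0.053 for the 39 and 0.084 for all genes, again not matched for level. The scaffold, kinase and adhesion genes split into 8 positive and 7 negative, with a median of 0.02. The actin regulators split into 16 positive and 8 negative, with a median of 0.03. The groups did not overlap for 8 of the 39 genes (20.5%), against 13.7% of all genes. They were 6 genes with all LPS libraries above all saline libraries (Dlg4, Dlgap2, Nlgn2, Arhgef7, Limk1 and Actg1, against 6.84% of all genes) and 2 with all LPS libraries below (Dlg3 and Pak1, against 6.84%).

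One saline library sat low in many genes of the set, and another sat high. Saline 3 held the lowest value of the 6 libraries in 16 of the 39 genes (41.03%), where it was lowest in 16.0% of all genes, and it was highest in 0 of the 39. Saline 1 was highest in 12 of the 39 (30.8%, against 14.5% of all genes). LPS 2 was also highest in 12 (30.8%, against 18.7% of all genes). The median gene of the 39 was at a log2 of 0.01, 0.04 and 0.05 relative to the saline mean in LPS 1 to 3, and at 0.05, 0.01 and -0.04 in Saline 1 to 3. Saline 3 also had the lowest summed level of excitatory neuron markers, 2221 CPM, where the other saline libraries had 2514 and 2348 CPM, and the part of that marker level in the results was not tested. Without Saline 3 the median log2 change of the 39 was 0.0037, and without Saline 1 it was 0.052.

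**Figure D3:**
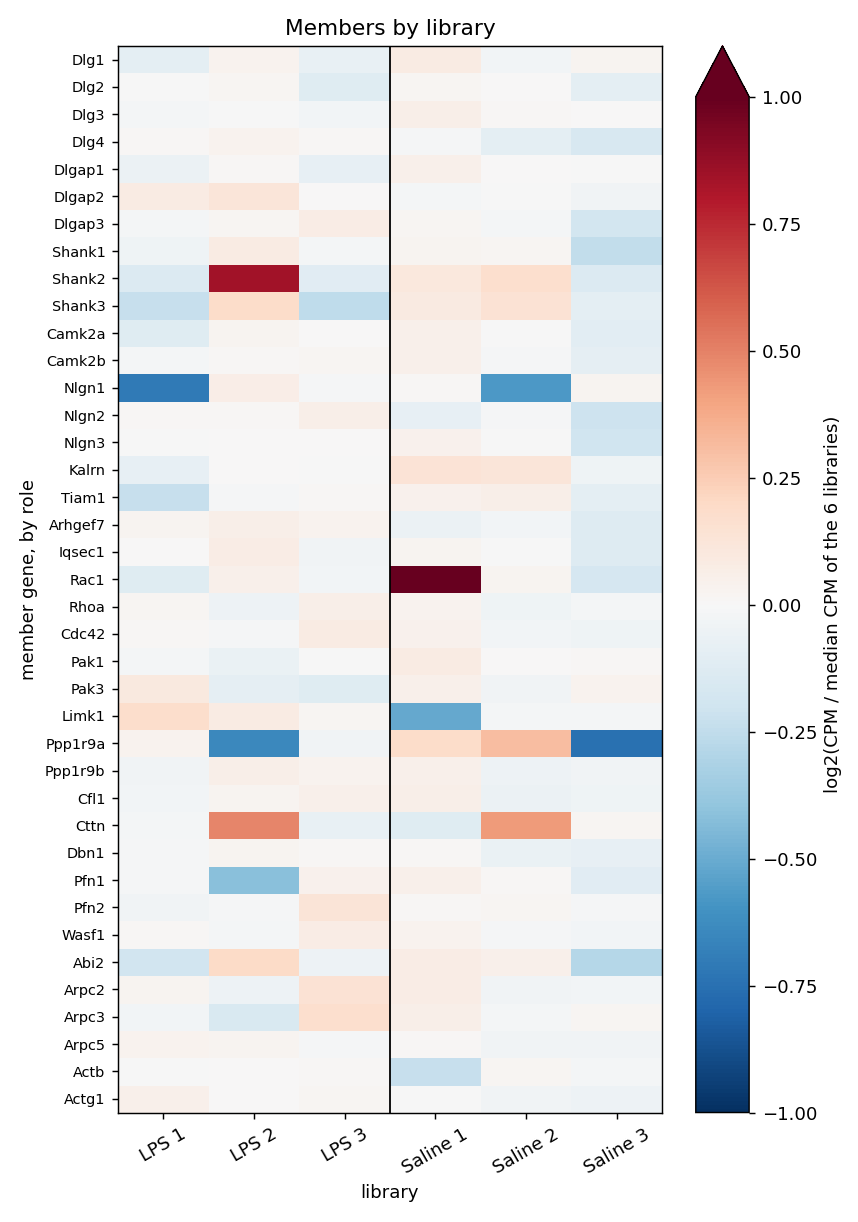
Level of each of the 39 genes (rows, ordered by role) in each library (columns, LPS left of saline) as log2 of CPM over the median CPM of the 6 libraries; the colour scale ends at 1, and Rac1 in Saline 1 exceeds it. Most cells are pale, and the darker ones are single libraries of a few genes, among them Shank2 in LPS 2, Rac1 and Limk1 in Saline 1, Nlgn1 in LPS 1 and Saline 2, Ppp1r9a in LPS 2 and Saline 3, Cttn in LPS 2 and Saline 2, and Pfn1 in LPS 2.

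Dlg4 (chr11:70016942-70047522, plus strand, GRCm38) encodes PSD-95, the most abundant scaffold of the excitatory postsynaptic density. It had 1094, 1110 and 1092 CPM in LPS mice, against 1079, 1015 and 970 CPM in saline mice. All LPS libraries were above all saline libraries, by a small margin over Saline 1. The means were 1099 ± 9.97 CPM in LPS mice and 1021 ± 54.6 CPM in saline mice (SD, n = 3 each), and Dlg4 thus differed by 0.11 on the log2 scale (SE 0.056, adjusted p = 0.756 in edgeR). The interval leaves out any rise above 1.17-fold and any fall beyond 1.01-fold. Without Saline 3 the log2 change was 0.07. Without Saline 1 it was 0.15 (unadjusted p = 0.039, adjusted p = 0.813 in edgeR), with rises above 1.22-fold left out.

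Of the other members of its family, Dlg1 and Dlg3 leaned the other way, and Dlg2 had no steady sign. Dlg1, which encodes SAP97, a scaffold tied to receptor trafficking, had 120.9, 132.4 and 122.5 CPM in LPS mice, against 136.4, 127.0 and 131.4 CPM in saline mice, and LPS 2 lay within the saline range. Dlg1 had a log2 change of -0.07, with a rise above 1.04-fold and a fall beyond 1.15-fold left out. Dlg3, which encodes SAP102, prominent at young synapses, had 193.6, 196.2 and 192.7 CPM in LPS mice, against 204.6, 198.1 and 196.8 CPM in saline mice. The groups stood apart, but the nearest libraries, LPS 2 and Saline 3, were almost level. For Dlg3 the log2 change was -0.04 (SE 0.051, adjusted p = 0.894 in edgeR), with any fall beyond 1.11-fold left out. Dlg2, which encodes PSD-93, had a log2 change of -0.01, with changes beyond 1.09-fold up and 1.11-fold down left out. Leaving out single libraries moved the Dlg2 value between -0.05 and 0.03.

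The authors' FPKM is scaled by transcript length and so allows levels to be set between genes. It did not keep a fixed ratio to CPM across libraries. Shank1, for example, had its lowest CPM among the LPS libraries in LPS 1 (1026) but its highest FPKM there (118.5). On FPKM, Dlg4 made up 70.3% ± 0.69 of the summed Dlg1 to Dlg4 level in LPS mice and 68.2% ± 0.64 in saline mice (SD, n = 3 each). In single libraries its share was 70.4%, 69.6% and 71.0% in LPS mice and 69.0%, 67.9% and 67.8% in saline mice, and these did not overlap. Dlg1 held 7.51% ± 0.29 in LPS mice and 8.38% ± 0.32 in saline mice, and Dlg3 held 8.71% ± 0.064 in LPS mice and 9.36% ± 0.23 in saline mice. The shares of both were lower in every LPS library than in any saline library. Shares within a family add to a fixed total, so these are not independent of the higher Dlg4 share. The CPM ratio of Dlg4 to Dlg1 was 9.05, 8.39 and 8.92 in LPS mice, against 7.91, 7.99 and 7.38 in saline mice. This ratio was higher in all 3 LPS libraries, with a log2 difference of 0.18 and p = 0.1 in a two-sided exact permutation test, the smallest p that 3 against 3 allows. Adjusted over the 6 family ratios compared here it was 0.3, and with so few mice no ratio could have passed the threshold.

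The SAPAP genes, whose products bridge Dlg and Shank proteins, moved little. Dlgap2 had 106.6, 109.8 and 101.0 CPM in LPS mice, against 99.7, 100.9 and 98.5 CPM in saline mice. The lowest LPS library was above the highest saline library by under 1 CPM. The change of Dlgap2 was 0.09 on the log2 scale (SE 0.055, adjusted p = 0.794 in edgeR), with any rise above 1.16-fold left out. Dlgap1, at a log2 change of -0.06, was bounded to a rise of 1.04-fold and a fall of 1.13-fold, and Dlgap3, at 0.08, to a rise of 1.17-fold and a fall of 1.04-fold. Without Saline 3 the log2 change of Dlgap3 was 0.03, with rises above 1.12-fold left out. Without Saline 1 it was 0.12, with rises above 1.22-fold left out. Dlgap1 made up 46.7% ± 0.85 of the family's FPKM in LPS mice and 49.3% ± 1.56 in saline mice (SD, n = 3 each).

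The Shank genes encode the deep master scaffolds of the postsynaptic density. Shank1 (chr7:44310253-44360572, plus strand) had 1026, 1119 and 1044 CPM in LPS mice, against 1081, 1071 and 890 CPM in saline mice. The groups overlapped, with Saline 3 lowest, and the log2 change of 0.07 (SE 0.080) leaves out any rise above 1.19-fold and any fall beyond 1.08-fold. Without Saline 3 the sign turned, to -0.02, with falls beyond 1.12-fold left out. Without Saline 1 the log2 change was 0.12, with rises above 1.24-fold left out.

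Shank2 (chr7:144001928-144424494, plus strand) was among the genes that the data bound least. It had 198.6, 391 and 202.3 CPM in LPS mice, against 235.4, 245.4 and 199.2 CPM in saline mice. LPS 2 stood far above all other libraries, and the other LPS libraries were level with the lowest saline library. Shank2 had a log2 change of 0.22 (SE 0.327, adjusted p = 0.926 in edgeR), with an interval of -0.66 to 1.1 that reaches a 2.14-fold rise and a 1.57-fold fall. Without LPS 2 the sign turned, to -0.18 (SE 0.091, adjusted p = 0.814 in edgeR).

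Shank3 (chr15:89499623-89560261, plus strand), a gene whose loss is a known cause of autism spectrum disorder, had 341.7, 456.3 and 337.5 CPM in LPS mice, against 427.2, 444.5 and 375.7 CPM in saline mice. LPS 1 and LPS 3 were below every saline library, and LPS 2 was above every saline library. Over all libraries the log2 change was -0.14 (SE 0.133, adjusted p = 0.866 in edgeR), with any fall beyond 1.37-fold and any rise above 1.14-fold left out. Without LPS 2 it was -0.29 (SE 0.080, adjusted p = 0.432 in edgeR, unadjusted p = 0.0062), which still did not pass. On FPKM, Shank3 made up 25.3%, 27.3% and 25.7% of the Shank total in LPS mice, against 28.8%, 28.8% and 30.2% in saline mice, with no overlap. The CPM ratio of Shank3 to Shank2 was 1.72, 1.17 and 1.67 in LPS mice and 1.81, 1.81 and 1.89 in saline mice, a log2 difference of -0.30 (two-sided exact permutation p = 0.1, adjusted 0.3). Without LPS 2 that difference was -0.12.

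**Figure D4:**
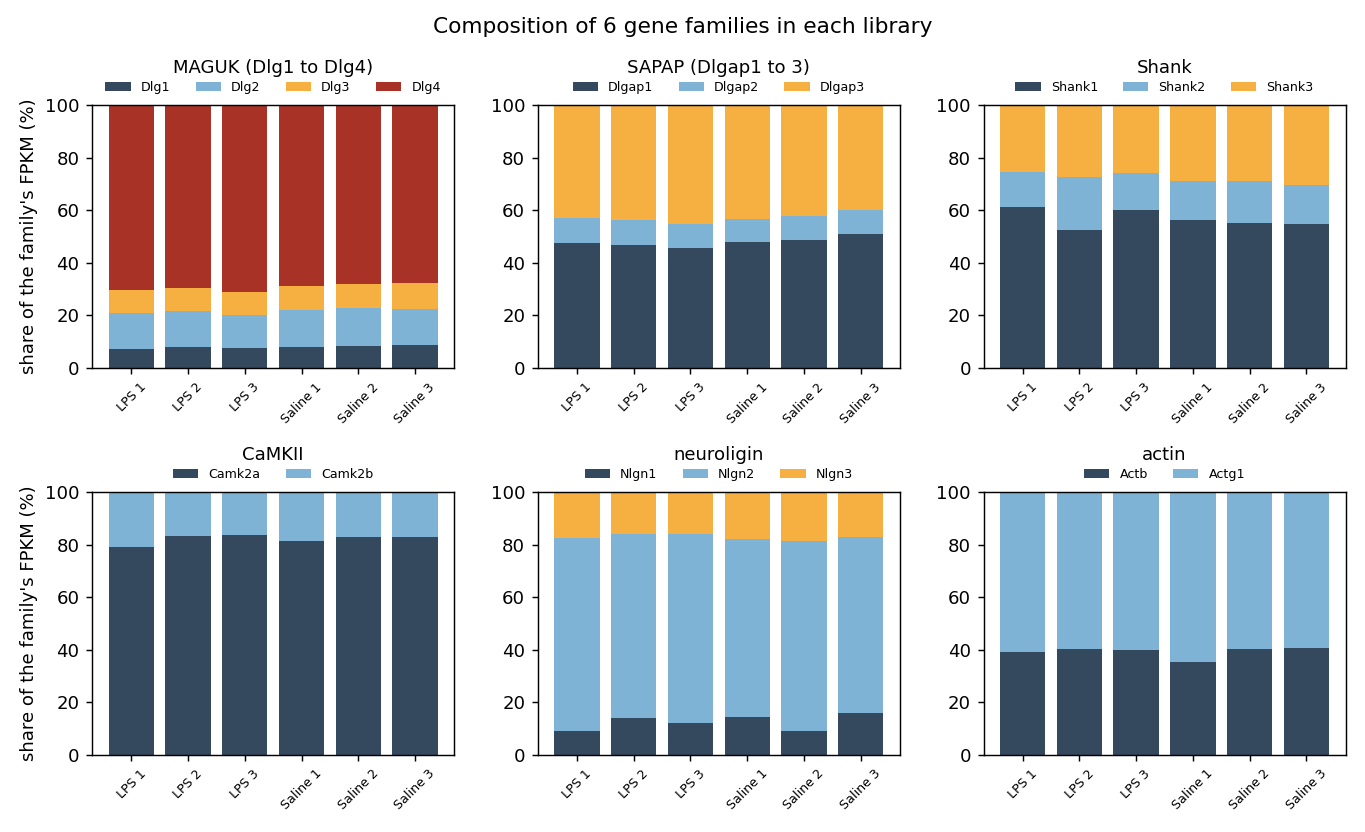
Share (%) of each gene in the summed FPKM of its family, for 6 families, in each library (LPS left of saline). The Dlg4 share was 69.6% to 71.0% in LPS libraries and 67.8% to 69.0% in saline libraries, and the Shank3 share 25.3% to 27.3% in LPS libraries and 28.8% to 30.2% in saline libraries.

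Camk2a, the alpha subunit of the calcium/calmodulin-dependent kinase that is both enzyme and structural component of the postsynaptic density, was the most highly expressed gene of the set per length, at 760 ± 29.0 FPKM in LPS mice and 771 ± 28.2 FPKM in saline mice (SD, n = 3 each). It had 3869, 4286 and 4223 CPM in LPS mice, against 4374, 4204 and 3917 CPM in saline mice, and the ranges coincided almost wholly. Its log2 change was -0.01 (SE 0.066, adjusted p = 0.979 in edgeR), with any rise above 1.1-fold and any fall beyond 1.12-fold left out. Camk2b, the beta subunit, which binds actin, had a log2 change of 0.02, bounded to 1.11-fold up and 1.08-fold down. The log2 CPM ratio of Camk2a to Camk2b differed by -0.03 (two-sided exact permutation p = 0.4, adjusted 0.72).

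Neuroligins are postsynaptic adhesion proteins that bind presynaptic neurexins. Nlgn2, the neuroligin of inhibitory synapses (chr11:69823122-69837784, minus strand), had 380.8, 380.5 and 392.3 CPM in LPS mice, against 355.3, 373.6 and 327.4 CPM in saline mice. Every LPS library was above every saline library, and the LPS libraries were close together. The log2 change was 0.13 (SE 0.061, adjusted p = 0.718 in edgeR), with any rise above 1.2-fold and any fall beyond 1.01-fold left out, and it was 0.08 without Saline 3. The summed level of 7 inhibitory neuron markers was 748, 681 and 742 CPM in LPS 1 to 3 and 652, 623 and 694 CPM in Saline 1 to 3. The part of that marker level in the Nlgn2 values was not tested.

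Nlgn1, the neuroligin of excitatory synapses, had 46.5, 79.7 and 75.2 CPM in LPS mice, against 76.8, 51.0 and 77.6 CPM in saline mice. One library in each group, LPS 1 and Saline 2, was far below the others. For Nlgn1 the log2 change was -0.03 (SE 0.288, adjusted p = 0.992 in edgeR), and the interval of -0.79 to 0.73 reaches a 1.66-fold rise and a 1.73-fold fall. Nlgn3, found at both kinds of synapse, had 135.1, 135.6 and 135.3 CPM in LPS mice, against 139.2, 135.0 and 118.1 CPM in saline mice. The LPS libraries were nearly identical and fell within the saline range, with a log2 change of 0.05 bounded to 1.15-fold up and 1.07-fold down. Per length, Nlgn2 made up 71.9% ± 1.48 of the neuroligin FPKM in LPS mice and 69.0% ± 2.85 in saline mice (SD, n = 3 each), and the groups overlapped. The Nlgn1 to Nlgn2 ratio differed by a log2 of -0.17 (two-sided exact permutation p = 0.5, adjusted 0.72).

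Upstream of spine actin stand the exchange factors that load GTPases with GTP. Arhgef7 (chr8:11727721-11835219, plus strand), which encodes beta-PIX, a Rac and Cdc42 activator, had 144.4, 147.9 and 145.0 CPM in LPS mice, against 135.8, 138.9 and 129.8 CPM in saline mice. The groups did not overlap, and it had the smallest edgeR p of the 39 genes. The change of Arhgef7 was 0.11 on the log2 scale (SE 0.053, adjusted p = 0.711 in edgeR), with any rise above 1.17-fold left out. Kalrn, a Rac activator whose kalirin-7 isoform enlarges spines, had 725, 771 and 768 CPM in LPS mice, against 845, 839 and 748 CPM in saline mice. LPS 2 and LPS 3 lay within the saline range only through Saline 3. Its log2 change was -0.10 (SE 0.063, adjusted p = 0.784 in edgeR), which leaves out any rise above 1.03-fold and any fall beyond 1.19-fold. Without Saline 3 it was -0.16 (unadjusted p = 0.025, adjusted p = 0.560 in edgeR), with falls beyond 1.22-fold left out. Without Saline 1 it was -0.07. Tiam1, another Rac activator, had a log2 change of -0.08 with falls beyond 1.19-fold left out, and Iqsec1, an Arf exchange factor, one of 0.05 with rises above 1.14-fold left out.

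Of the GTPases themselves, Rac1, which drives branched actin and spine growth (chr5:143503634-143528036, minus strand), gave the widest interval of the set. It had 66.7, 75.2 and 71.2 CPM in LPS mice, against 302.0, 74.1 and 64.8 CPM in saline mice. Saline 1 stood 4.66-fold above the lowest saline library, and the other 5 libraries were between 64.8 and 75.2 CPM. The deposited counts show the same, at 2799, 3042 and 2598 in LPS mice and 11529, 2968 and 2466 in saline mice. The log2 change with all libraries was -1.05 (SE 0.730, adjusted p = 0.822 in edgeR), and its interval ran from -3.04 to 0.94. Without Saline 1 it was 0.03 (SE 0.086, adjusted p = 0.969 in edgeR), with any rise above 1.17-fold and any fall beyond 1.12-fold left out.

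The exons of Rac1 overlap those of Daglb, a diacylglycerol lipase gene on the other strand, over 2309 bases. The library kit is not stated to keep the strand. Daglb had 39.9, 36.4 and 40.1 CPM in LPS mice, against 42.1, 39.7 and 38.8 CPM in saline mice, with Saline 1 highest by a small margin. The cause of the Rac1 value in Saline 1 was not tested. Rhoa, which promotes actin contraction and spine shrinkage, had a log2 change of 0.02, bounded to 1.11-fold up and 1.08-fold down. Cdc42, which promotes spine growth, had one of 0.03, bounded to 1.12-fold up and 1.06-fold down. Exons of Rhoa overlap those of Tcta by 32 bases.

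**Figure D5:**
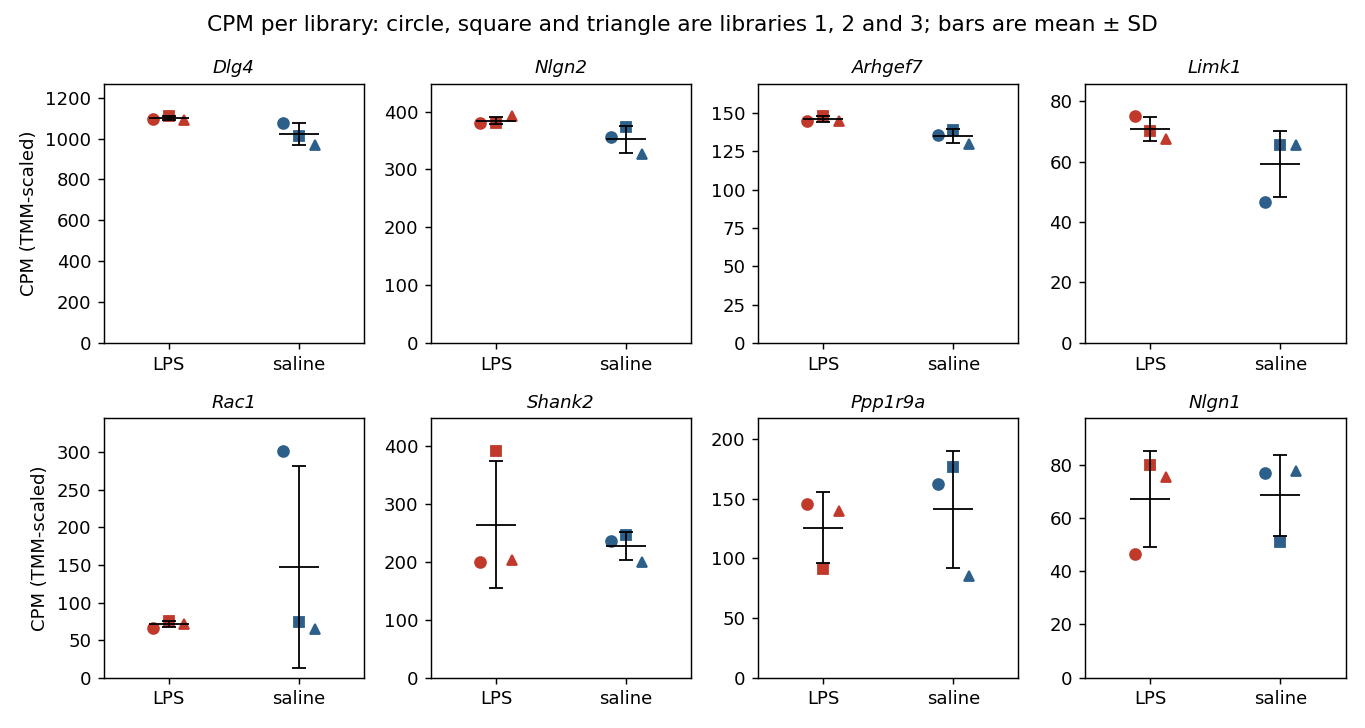
CPM per library (points; circle, square and triangle are libraries 1, 2 and 3) for 8 of the 39 genes, LPS left of saline, with mean and SD (bars, n = 3 each); each vertical axis starts at 0. In the upper row no LPS library falls below a saline library, and in the lower row single libraries set the spread, as with Rac1 at 302.0 CPM in Saline 1.

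The kinases below the GTPases include Pak1 and Pak3, which phosphorylate LIM kinases, and Limk1, which inactivates cofilin. Limk1 (chr5:134656039-134688598, minus strand) had the largest positive log2 change of the set. It had 75.1, 70.1 and 67.4 CPM in LPS mice, against 46.5, 65.4 and 65.4 CPM in saline mice. The groups did not overlap, but Saline 1 stood well below the rest and LPS 3 was about 2 CPM above the other saline libraries. The means were 70.9 ± 3.90 CPM in LPS mice and 59.1 ± 10.9 CPM in saline mice (SD, n = 3 each), and the log2 change was 0.26 (SE 0.135, adjusted p = 0.757 in edgeR). Without Saline 1 it was 0.12 (SE 0.074, adjusted p = 0.885 in edgeR). Without Saline 2 it was 0.34, with rises above 1.62-fold left out. Pak1 had 440.2, 426.6 and 444.3 CPM in LPS mice, against 472.2, 447.1 and 448.2 CPM in saline mice. The groups stood apart by a narrow margin, with a log2 change of -0.06 bounded to a 1.13-fold fall. Pak3 had one of -0.05, bounded to a 1.15-fold fall. Without LPS 1 it was -0.12, bounded to a 1.2-fold fall, and without LPS 3 it was -0.0090.

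Neurabin (Ppp1r9a) and spinophilin (Ppp1r9b) bind actin and bring protein phosphatase 1 to the spine. Ppp1r9a had 146.0, 91.5 and 139.5 CPM in LPS mice, against 162.0, 176.4 and 85.1 CPM in saline mice. LPS 2 and Saline 3 were both far below the other libraries. Ppp1r9a had a log2 change of -0.17 (SE 0.364, adjusted p = 0.950 in edgeR), and the interval of -1.15 to 0.81 reaches a 2.22-fold fall and a 1.76-fold rise. Leaving out single libraries moved it between -0.43 and 0.02. Ppp1r9b had 1702, 1816 and 1785 CPM in LPS mice, against 1808, 1686 and 1699 CPM in saline mice. Saline 2 and Saline 3 were below every LPS library and LPS 2 was above every saline library, so the groups overlapped through Saline 1. The log2 change of 0.03 was bounded to 1.12-fold up and 1.07-fold down.

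Among the genes whose products bind actin directly, Cfl1 encodes cofilin, which severs filaments and is the target of LIM kinase. It had 713.9, 738.4 and 753.9 CPM in LPS mice, against 755.7, 695.9 and 703.3 CPM in saline mice. Saline 1 was above every LPS library, and Saline 2 and Saline 3 were below every LPS library. The log2 change of 0.03 was bounded to 1.12-fold up and 1.06-fold down. Its exons overlap those of Snx32 by 468 bases. Dbn1 (drebrin, which stabilises spine filaments) had a log2 change of 0.05, bounded to 1.13-fold up and 1.05-fold down, and Pfn2 (the neuronal profilin, which feeds actin monomers to filaments) one of 0.02, bounded to 1.11-fold up and 1.08-fold down.

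Pfn1, the ubiquitous profilin, had 77.2, 58.2 and 80.3 CPM in LPS mice, against 80.7, 78.7 and 71.9 CPM in saline mice. Only LPS 2 was below the saline range. Its log2 change was -0.10 (SE 0.122, adjusted p = 0.893 in edgeR), with falls beyond 1.31-fold left out, and it was 0.03 without LPS 2. The Pfn2 to Pfn1 ratio differed by a log2 of 0.13 (two-sided exact permutation p = 0.6, adjusted 0.72). Cttn, which encodes cortactin, a stabiliser of actin branches, had 69.2, 98.4 and 66.5 CPM in LPS mice, against 64.5, 94.2 and 70.7 CPM in saline mice. One library in each group was high, LPS 2 and Saline 2, and the log2 change was 0.03 (SE 0.224), bounded to 1.52-fold up and 1.46-fold down. Leaving out single libraries moved it between -0.17 and 0.21.

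The genes of the machinery that starts new branches had small log2 changes, none past the threshold. Wasf1 and Abi2 encode parts of the WAVE complex, which turns on Arp2/3 below Rac, and Arpc2, Arpc3 and Arpc5 encode subunits of Arp2/3 itself. Wasf1 had a log2 change of 0.02, bounded to 1.1-fold up and 1.07-fold down. Abi2 had 54.9, 71.8 and 60.5 CPM in LPS mice, against 66.2, 65.0 and 51.6 CPM in saline mice, and its log2 change of 0.03 was bounded less well, to 1.26-fold up and 1.21-fold down. It ranged from -0.08 to 0.12 without single libraries. The 3 Arp2/3 genes had log2 changes of 0.04 (Arpc2), -0.02 (Arpc3) and 0.04 (Arpc5). The largest rise not left out among them was 1.14-fold (Arpc2) and the largest fall 1.15-fold (Arpc3). Wasf1, Arpc2 and Arpc3 also changed sign without single libraries, and Arpc5 did not.

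The cytoplasmic actins Actb (chr5:142903115-142906754, minus strand) and Actg1 (chr11:120345690-120348542, minus strand) form the filaments themselves. Their coding sequences are the same length, 1125 bases, and differ at 128 bases (88.62% identical), so short reads from one could match the other in places. The first 120 coding bases of both, from the GRCm38 genome and shown 5′ to 3′ on the coding strand, differ at 22 bases, which the capitals mark.
Actb, chr5:142905567-142905686: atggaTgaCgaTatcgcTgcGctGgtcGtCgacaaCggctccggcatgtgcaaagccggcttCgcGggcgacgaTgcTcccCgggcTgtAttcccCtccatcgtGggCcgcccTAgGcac
Actg1, chr11:120347972-120348091: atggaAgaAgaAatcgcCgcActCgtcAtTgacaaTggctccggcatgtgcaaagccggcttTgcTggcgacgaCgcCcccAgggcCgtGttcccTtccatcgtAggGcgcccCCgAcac
The longest run with no difference is 62 bases, at coding positions 889 to 950 of both genes, and is shown because a shorter read from it has no base that tells the genes apart.
Actb and Actg1, shared run: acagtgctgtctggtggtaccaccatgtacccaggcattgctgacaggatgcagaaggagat
Of the 100-base windows of the annotated transcripts, 0.644% of those of Actb and 29.9% of those of Actg1 also occur in another gene elsewhere. For Actg1 the gene that held the most of them was a processed pseudogene, Gm12715, that has no row in the table. Actg1 was the only gene of the 39 with more than 5% of such windows, and 33 of the 39 had none.

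Actb had 532.1, 534.8 and 537.7 CPM in LPS mice, against 454.8, 541.7 and 525.3 CPM in saline mice. The LPS libraries were within the saline range, and Saline 1 was low. The log2 change was 0.08 (SE 0.069, adjusted p = 0.842 in edgeR), bounded to 1.17-fold up and 1.06-fold down, and it was 0.004 without Saline 1. Actg1 had 844.0, 815.2 and 824.5 CPM in LPS mice, against 811.0, 795.1 and 783.8 CPM in saline mice. The groups stood apart by a margin smaller than the spread within either group, and the log2 change was 0.06 (SE 0.049, adjusted p = 0.840 in edgeR), bounded to 1.12-fold up and 1.04-fold down. The Actb to Actg1 ratio differed by a log2 of 0.03 (two-sided exact permutation p = 1), and Actb made up 39.8% ± 0.66 of the FPKM of both in LPS mice and 38.8% ± 2.93 in saline mice (SD, n = 3 each).

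Other genes of the same 2 pathways were taken from lists of 37 postsynaptic scaffold and adhesion genes, 36 of them measured, and 59 actin regulators, all measured. Of the 36, 0 rose and 0 fell by edgeR, with 2 at an unadjusted p under 0.05 and a median log2 change of -0.04. Of the 59, 0 rose and 0 fell, with 3 at an unadjusted p under 0.05 and a median of -0.0016. The share of all genes called by edgeR in either direction was 0.288%, and the share at an unadjusted p under 0.05 in edgeR was 7.17%.

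The smallest p in either list belonged to Marcksl1, which encodes a membrane-bound protein that binds actin and calmodulin. It had 109, 106 and 115 CPM in LPS mice, against 80.6, 90.0 and 86.6 CPM in saline mice. All LPS libraries were above all saline libraries by more than the range within either group. Marcksl1 had a log2 change of 0.36 (SE 0.063, adjusted p = 0.0696 in edgeR), short of the threshold, with an interval of 0.22 to 0.50 for this gene on its own. DESeq2 called it, with an adjusted p of 8.7e-04, and limma-voom did not (adjusted p = 0.123).

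Arhgap33, which encodes a GTPase-activating protein, had 372, 386 and 347 CPM in LPS mice, against 337, 325 and 296 CPM in saline mice, with no overlap and a log2 change of 0.21 (SE 0.067, adjusted p = 0.504 in edgeR). Sorbs2, which encodes an adaptor between actin and signalling proteins, had 103, 118 and 96.4 CPM in LPS mice, against 122, 148 and 159 CPM in saline mice. The groups did not overlap, with LPS 2 and Saline 1 close, and the log2 change was -0.43 (SE 0.113, adjusted p = 0.390 in edgeR). DESeq2 called it lower, with an adjusted p of 0.017, and limma-voom did not call it (adjusted p = 0.450). Camk2g, the gamma subunit of the same kinase as Camk2a, had 212, 208 and 237 CPM in LPS mice, against 257, 245 and 231 CPM in saline mice. LPS 3 lay within the saline range, and the log2 change was -0.16 (SE 0.068, adjusted p = 0.696 in edgeR).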

How the data were processed

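RNA from the ACC of 1 mouse per library was sequenced as polyadenylated transcripts with a kit not stated to keep the strand, per the labels' protocols. The authors deposited raw read counts per gene and FPKM values beside them; TopHat2 2.1, DESeq 1.10.1 and GRCm38 are named in the submitters' processing notes, and those notes and the labels name neither the counting program nor the annotation release. Total counts ran from 36168687 to 41270737 per library. The 39 genes were matched by symbol.

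The counts were tested here with edgeR 4.0.16 in R 4.3.3 (TMM factors, quasi-likelihood test, robust option, treatment as the only term, two-sided, Benjamini-Hochberg over 14250 genes); filterByExpr removed 0 rows. The SE is the size of the log2 change over the square root of F, and the 95% interval uses the t quantile at the test's total degrees of freedom. Family ratios used a two-sided exact permutation test over 20 regroupings, adjusted over 6 ratios. Positions came from GENCODE M21, in which all 39 genes were found. Steps were tested on simulated data.

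Members and lists were chosen with earlier results of these data known. The genes named are all 39 and, from the other lists, with none past the threshold, the 2 with the smallest p in each direction. Alternatives were RLE factors, total counts alone, DESeq2 1.42.0, limma-voom (limma 3.58.1), a block for the replicate number, omission of single libraries, no filter, a minimum mean of 50 counts, no robust option, limma on log2(FPKM + 1), a threshold of 0.1, other margins, and a Bonferroni level.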

Additional observations from a re-analysis of the deposited data

How the results depend on the processing

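With edgeR, 0 of the 39 genes were called higher and 0 lower, and the same held under every alternative tried: other scaling, filters, tools, the threshold of 0.1, and without each library in turn (0 to 0 in each direction). The number with an interval inside 1.5-fold was 34, ran from 33 to 35 without single libraries and from 33 to 37 under other scalings, filters and tools, and was 30 at a Bonferroni level over the 39 genes. The median log2 change of the 39 ran from 0.0037 to 0.052 without single libraries. Over 15 alternative fits 17 of the 39 genes changed sign at least once and 22 never did; other scaling moved the median of all genes by at most 0.0062. In the other pathway lists DESeq2 called 1 gene higher (Marcksl1) and 1 lower (Sorbs2), against 0.983% of all genes called in either direction. There edgeR called 0 and 0, and also 0 to 0 in each direction without single libraries, and limma-voom called neither gene. At the threshold of 0.1, Marcksl1 passed in edgeR too (adjusted p = 0.0696), and Sorbs2 did not. Neither passed it in limma-voom (adjusted p = 0.123 for Marcksl1 and 0.450 for Sorbs2). The cause of the difference between tools was not tested. With the replicate number as a block, 34 intervals lay inside 1.5-fold and 0 genes were called. The same-numbered libraries correlated at -0.027, 0.025 and 0.042, and differently numbered ones at -0.060 to 0.035. Such small values cannot show whether mice shared a litter or cage, and the labels give no pairing. The Dlg4 to Dlg1 log2 ratio ran from 0.14 to 0.21 and the Shank3 to Shank2 ratio from -0.40 to -0.12 without single libraries. Each of the 39 genes had at least 1777 counts in every library.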
